A study of Rattus norvegicus with 12 samples.

Results

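Toll-like receptor signaling was followed through 10 genes in the wound tissue of diabetic rats. These were the receptor genes *Tlr1*, *Tlr2*, *Tlr3*, *Tlr4*, *Tlr5*, *Tlr7*, and *Tlr8*, the adaptor genes *Myd88* and *Ticam1*, and *Irak3*, which encodes an inhibitor of the same pathway. The genes were chosen by symbol, and each symbol was found in both deposited tables, as 10 of 25620 genes in the table of read counts and 10 of 25524 genes in the table of FPKM values. All 10 also passed the filter on low counts, which kept 16110 genes for the model fits.

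Toll-like receptors are membrane proteins of the innate immune system that bind molecules shared by many microbes, or molecules released by injured cells, and they are abundant on macrophages and other myeloid cells of a wound. TLR1, TLR2, TLR4, and TLR5 act at the cell surface on lipoproteins, lipopolysaccharide, and flagellin, whereas TLR3, TLR7, and TLR8 sit in endosomes and sense RNA. Most of these receptors signal through the adaptor MYD88 to NF-kB, TLR3 signals through TICAM1 (also called TRIF) to interferon regulatory factors, TLR4 uses both adaptors, and IRAK3 (also called IRAK-M) restrains the MYD88 branch.

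The study compared dressings of snail mucus with saline on chronic wounds. The rats were young adult males of the Sprague-Dawley strain, made diabetic with streptozotocin in all groups, the control included, and each had a punched full-thickness wound on the back. The control wounds received normal saline, d-SMG was the dried mucus gel of the snail *Achatina fulica*, GAG was the sulfated glycosaminoglycan purified from that mucus, and Alg was a commercial alginate dressing. Wound tissue was sampled on day 3, 7, and 14, and the 12 libraries analyzed here hold 1 library for each of the 4 treatments and 3 days. None of the groups used here is a wound of an animal without diabetes, and whether a library came from 1 animal or from a pool was not stated.

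The libraries held 13748887 to 38302461 reads on genes, with a median of 17022524.5, and the 10 genes together took 0.00452% to 0.0212% of them, or 18 to 917 reads per gene and library. Skin was the labelled tissue, but the cell types in the libraries differed widely. The summed level of the keratinocyte markers ranged from 62.9 CPM (read counts scaled to the normalized size of the library) in the day 3 d-SMG library to 40241.5 CPM in the day 14 GAG library (14 of 15 markers found, none at 0 reads in a library), and that of 15 skeletal muscle markers from 6623 CPM in the day 7 d-SMG library to 263318 CPM in the day 3 d-SMG library. All 13 macrophage markers were found with at least 10 reads in each of the 12 libraries, and their sum ranged from 3086 to 4394 CPM in the control, 1801 to 4877 CPM in the d-SMG, 703 to 2014 CPM in the GAG, and 1019 to 3567 CPM in the Alg libraries. Of 12 neutrophil markers, *Cxcr2*, *Mpo*, *Elane*, *Fpr1*, and *Ltf* were at 0 reads in at least 1 library. The day 3 control library also stood apart by its interferon response genes, 23 genes with 4952 CPM in sum, where the highest other library, GAG on day 3, had 1355 CPM. In such bulk tissue, fewer cells of a type and less RNA per cell cannot be told apart.

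The bases in front of 4 of the genes are shown first, because they hold short motifs of factors known to act on innate immune genes. RefSeq (rat build GRCr8) gave a start site window for 9 of the 10 genes, all but *Ticam1*, and the 250 bases before the start were searched on both strands. Capitals mark the motif GAAANNGAAA (the core of the interferon-stimulated response element, ISRE) in *Myd88* and the motif GAGGAA (a core of the myeloid factor PU.1), or its reverse complement, in *Tlr3*, *Tlr4*, and *Tlr8*.
*Myd88* (chr8:127956231-127956480, minus strand): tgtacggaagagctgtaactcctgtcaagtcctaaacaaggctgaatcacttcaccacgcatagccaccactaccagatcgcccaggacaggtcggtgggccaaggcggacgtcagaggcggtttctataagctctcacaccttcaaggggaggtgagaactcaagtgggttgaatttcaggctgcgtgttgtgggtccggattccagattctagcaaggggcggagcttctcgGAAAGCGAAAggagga
*Tlr3* (chr16:53554666-53554915, plus strand): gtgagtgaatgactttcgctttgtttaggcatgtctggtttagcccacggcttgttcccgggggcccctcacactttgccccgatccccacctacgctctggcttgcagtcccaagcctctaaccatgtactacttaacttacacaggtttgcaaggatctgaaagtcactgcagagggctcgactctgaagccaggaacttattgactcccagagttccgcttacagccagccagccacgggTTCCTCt
*Tlr4* (chr5:85160997-85161246, plus strand): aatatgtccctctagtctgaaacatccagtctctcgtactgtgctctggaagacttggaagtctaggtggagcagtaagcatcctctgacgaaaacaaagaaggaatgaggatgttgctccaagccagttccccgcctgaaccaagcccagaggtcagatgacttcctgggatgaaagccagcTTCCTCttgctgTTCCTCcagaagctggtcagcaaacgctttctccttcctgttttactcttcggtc
*Tlr8* (chrX:30708476-30708725, plus strand): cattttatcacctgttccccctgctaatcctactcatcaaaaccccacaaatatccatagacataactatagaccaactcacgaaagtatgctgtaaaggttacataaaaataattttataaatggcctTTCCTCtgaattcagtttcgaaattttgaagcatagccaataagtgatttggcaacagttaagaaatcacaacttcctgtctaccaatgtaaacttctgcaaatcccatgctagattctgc

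The ISRE core stood in 1 of the 9 windows, 16 bases before the start of *Myd88* as GAAAGCGAAA, and in 3.41% of all 33465 windows of the table. The GAGGAA core stood in 4 of the 9, at 7 bases before the start in *Tlr3*, at 67 and 55 bases in *Tlr4*, at 152 bases in *Tlr7*, and at 121 bases in *Tlr8*, and in 23.3% of all windows. A motif like the NF-kB site, GGGANNNNCC, stood in the windows of *Tlr2*, as GGGAATTCCC at 205 bases and GGGACGTCCC at 42 bases, and of *Irak3*, as GGGATGCCCC at 34 bases on the opposite strand, and in 16.4% of all windows. No window held more than 1 of the 3 motifs, and the *Tlr2* matches read the same on both strands. A match is a run of letters and not a measured binding site, and several of the starts used lie inside the annotated gene, by 1535 bases in *Irak3*, 274 in *Tlr2*, 102 in *Tlr7*, 12 in *Tlr8*, 10060 in *Tlr1*, and 16730 in *Tlr5*. *Tlr7* and *Tlr8* are neighbors on chromosome X, and *Tlr1* lies between *Tlr6* and *Tlr10* on chromosome 14. *Tlr1* and *Tlr6* are close in sequence, and how reads fitting both were counted was not stated, so that counts of *Tlr1* are uncertain to that extent.

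Measured per gene length, the adaptor *Myd88* was the most abundant of the 10 transcripts, and the flagellin receptor *Tlr5* had the lowest median. FPKM, which divides the fragments of a gene by its length and by the size of the library, is the scale for such a comparison between genes. The median of *Myd88* over the 12 libraries was 7.485 FPKM (range 3.01 to 12.45), above *Irak3* in 12 of 12 libraries. *Irak3* followed at 3.19 (0.66 to 4.49), *Tlr8* at 2.905 (0.46 to 6.35), and *Ticam1* at 2.495 FPKM (1.13 to 3.44). These 3 were not separated, since *Irak3* was above *Tlr8* in 6 of 12 libraries and *Tlr8* above *Ticam1* in 7. The lipopolysaccharide receptor *Tlr4* had a median of 2.205 FPKM (0.7 to 3.84) and *Tlr7* of 2.13 (0.24 to 6.1), again without a fixed order (*Tlr4* higher in 6 of 12). *Tlr2* had a median of 1.56 FPKM (0.56 to 4.83) and was above *Tlr3* in 10 of 12 libraries. The lowest medians were those of *Tlr3* at 1.275 (0.66 to 2.31), *Tlr1* at 1.255 (0.26 to 2.53), and *Tlr5* at 0.955 FPKM (0.47 to 1.8), and *Tlr1* was above *Tlr5* in only 5 of 12 libraries.

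**Figure D1:**
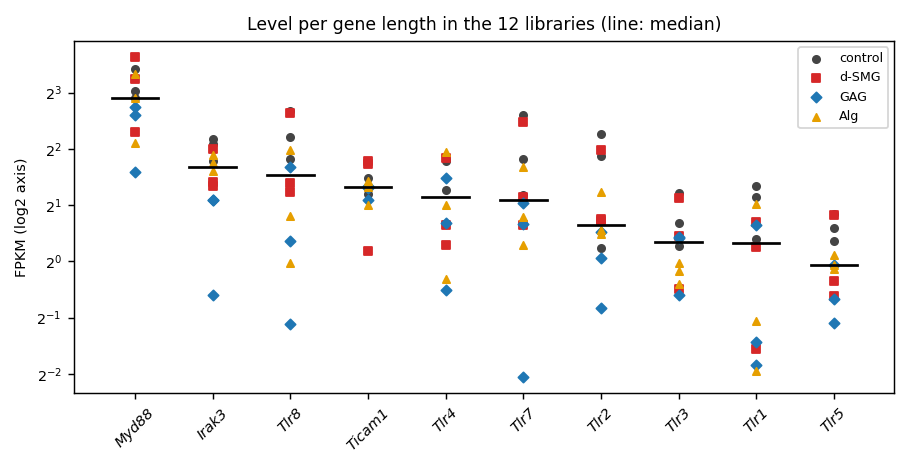
FPKM (log2 axis) of the 10 genes in the 12 libraries, ordered by their median (black line), with 1 point per library colored by treatment. *Myd88* has the highest median at 7.485 FPKM, and the lowest single value is that of *Tlr7* in a GAG library at 0.24 FPKM.

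The surface receptors *Tlr1* and *Tlr2*, which pair to bind bacterial lipoproteins, had levels in some GAG and Alg libraries far below those of the control on the same day. *Tlr1* had 10.9, 9.55, and 5.58 CPM (after TMM normalization) in the control on day 3, 7, and 14, and 1.998, 5.88, and 4.51 CPM in the d-SMG libraries. It had 6.01, 1.55, and 1.49 CPM in the GAG libraries and 1.93, 1.19, and 8.01 CPM in the Alg libraries, the last being the highest library of day 14. The low values rest on few reads, such as 18 in the Alg library of day 7. *Tlr2* had 14.1, 18.6, and 4.46 CPM in the control, 8.91, 12.7, and 5.57 CPM with d-SMG, 4.93, 2.11, and 5.0003 CPM with GAG, and 5.33, 5.64, and 8.32 CPM with Alg. The control of *Tlr2* was thus the highest library on day 3 and 7 and the lowest on day 14.

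The other surface receptors spanned narrower ranges. *Tlr4* had 12.9, 8.81, and 12.3 CPM in the control, 6.16, 10.95, and 5.07 CPM with d-SMG, 9.18, 5.70, and 3.18 CPM with GAG, and 6.91, 3.05, and 12.9 CPM with Alg. The groups of *Tlr4* overlapped, and its highest and lowest values were both in Alg libraries. *Tlr5* had 15.2, 10.9, and 12.6 CPM in the control, 7.49, 12.5, and 5.82 CPM with d-SMG, 7.20, 5.19, and 5.0003 CPM with GAG, and 7.26, 9.61, and 7.501 CPM with Alg. All GAG and Alg libraries of *Tlr5* lay below all 3 control libraries, which held in 7.66% of all genes for GAG and in 4.23% for Alg.

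Among the endosomal receptors, *Tlr7* and *Tlr8*, the sensors of single-stranded RNA, covered the widest range of levels. *Tlr7* had 29.7, 17.4, and 10.9 CPM in the control, 10.5, 22.7, and 9.58 CPM with d-SMG, 8.96, 7.59, and 1.49 CPM with GAG, and 7.90, 6.30, and 14.4 CPM with Alg, a 19.9-fold range. *Tlr8* had 35.6, 26.2, and 19.4 CPM in the control, 18.1, 29.3, and 12.96 CPM with d-SMG, 16.2, 7.03, and 3.25 CPM with GAG, and 9.23, 5.77, and 20.3 CPM with Alg, a 10.97-fold range. Both were highest in the day 3 control and next highest in the day 7 d-SMG library, and both were lowest in the day 14 GAG library. *Tlr3*, the sensor of double-stranded RNA, had 14.1, 9.89, and 7.27 CPM in the control, 5.99, 11.1, and 7.39 CPM with d-SMG, 7.31, 8.07, and 5.07 CPM with GAG, and 5.08, 6.30, and 4.29 CPM with Alg. Its range was 3.28-fold, and all 3 Alg libraries were below all 3 control libraries, as in 4.23% of all genes.

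The adaptors varied least. *Myd88* had 25.2, 19.4, and 17.3 CPM in the control, 16.1, 24.6, and 19.8 CPM with d-SMG, 12.8, 15.6, and 8.90 CPM with GAG, and 16.6, 10.7, and 22.0 CPM with Alg, a 2.83-fold range. *Ticam1* had 15.7, 14.0, and 12.7 CPM in the control, 8.74, 16.2, and 16.5 CPM with d-SMG, 12.8, 11.7, and 17.3 CPM with GAG, and 13.2, 11.8, and 13.9 CPM with Alg. Its range of 1.98-fold was the narrowest of the 10, and it was the one gene with its highest level in the day 14 GAG library, where 5 others had their lowest. *Irak3*, the inhibitor, had 39.0, 37.2, and 29.5 CPM in the control, 30.1, 29.0, and 20.3 CPM with d-SMG, 16.6, 18.2, and 7.21 CPM with GAG, and 30.5, 27.8, and 26.7 CPM with Alg. The 3 GAG libraries of *Irak3* were below all 3 control libraries, as in 7.66% of all genes.

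**Figure D2:**
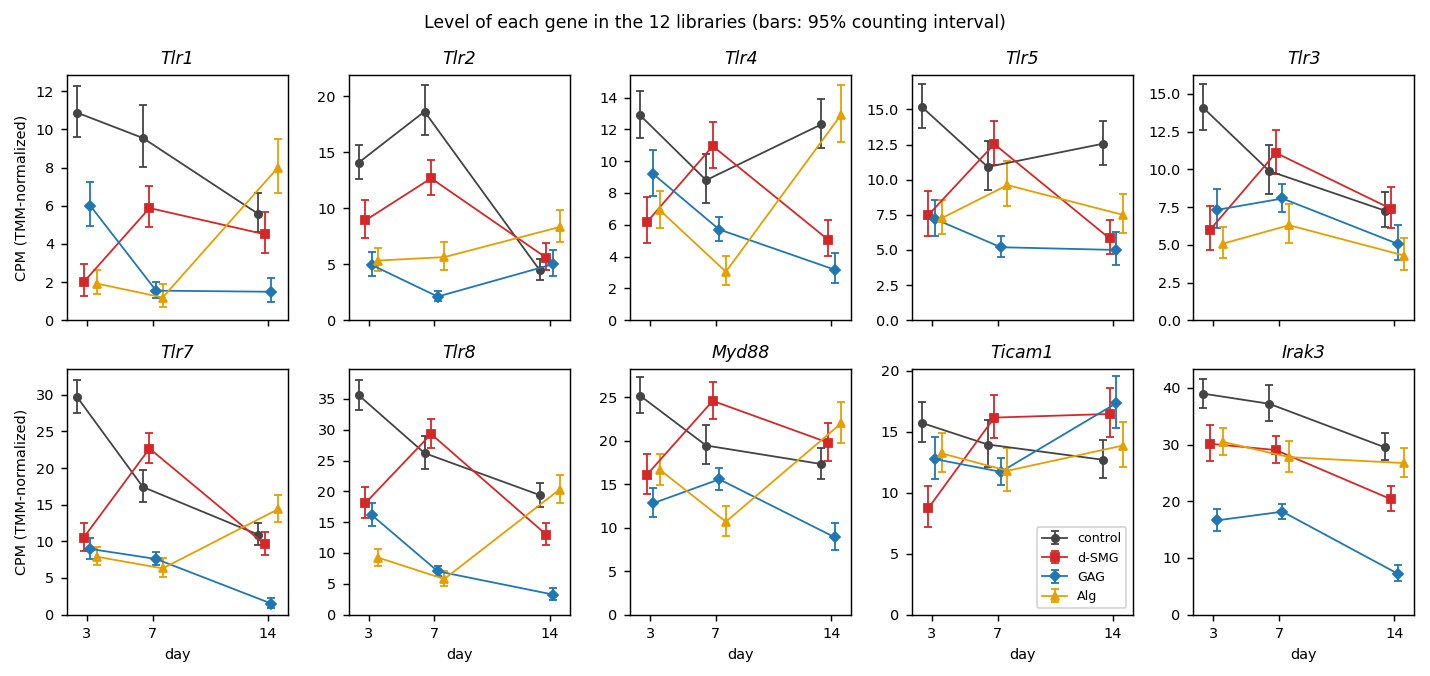
CPM (TMM-normalized) of each gene against the day, with 1 point per library, colored by treatment, bars giving the 95% counting interval, and lines joining the libraries of 1 treatment. Points of the same day are set slightly apart. The control is highest for all 10 genes on day 3, d-SMG is highest for 7 genes on day 7, and GAG is lowest for 7 genes on day 14.

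On day 3 the control wound held the highest level of all 10 genes among the 4 libraries. Over the 17555 genes with at least 10 reads in those libraries, the control was highest in 24.1%. The study's text names *Tlr5* among inflammation genes that it picked on these same libraries, so that this pattern is not independent evidence. With 1 library per treatment and day there is no replicate check for a single day, and a gene was counted as past 2-fold when its log2 ratio of CPM was at least 1 in size with at least 10 reads in the 2 libraries. The intervals are exact Clopper-Pearson intervals at 95% and cover counting error only.

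In the d-SMG wound of day 3, 5 of the 10 genes were at least 2-fold lower than in the control, against 14.2% of the 15846 genes with enough reads, and 0 were at least 2-fold higher, against 9.88%. *Tlr1* was furthest below the control, with 24 reads against 256 (log2 ratio -2.45, interval -3.11 to -1.84). *Tlr7* followed with 126 against 699 reads (-1.502, interval -1.79 to -1.23), and then *Tlr3* (-1.23), *Tlr4* (-1.06), and *Tlr5* (-1.02). *Irak3* was nearest to the control (-0.37, interval -0.55 to -0.19). The median of the 10 was -0.999 and that of all genes 0.0040. The number past 2-fold was 9 when scaled by library size alone, since that scaling lowered every ratio of this pair by 0.46, and 1 by an exact test with an assumed biological coefficient of variation of 0.3. Here and below, counts under these settings have no share of all genes beside them, so they cannot be set against a background. Beside these values, the macrophage markers were lower in 10 of 13 (summed log2 ratio -0.76), the interferon response genes in 22 of 23 (-4.44), and the keratinocyte markers in 14 of 14 (-6.56), while the muscle markers were higher in 14 of 15 (1.56). Their part in the result was not tested.

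GAG and Alg wounds of day 3 were also below the control in all 10 genes. Of all genes with enough reads, 49.7% were below the control with d-SMG, 51.8% with GAG, and 50.5% with Alg. With GAG, 5 genes were at least 2-fold lower, against 11.6% of 16426 genes, and 0 higher, against 14.2%. These were *Tlr7* (log2 ratio -1.73, interval -1.99 to -1.48), *Tlr2* (-1.51), *Irak3* (-1.23), *Tlr8* (-1.14), and *Tlr5* (-1.08), and the median of the 10 was -1.02. With Alg, 6 genes were at least 2-fold lower, against 8.79% of 16487 genes, and 0 higher, against 11.4%. *Tlr1* was again the furthest below (-2.50, interval -3.02 to -2.01), followed by *Tlr8* (-1.95, interval -2.18 to -1.72), *Tlr7* (-1.91), *Tlr3* (-1.47), *Tlr2* (-1.40), and *Tlr5* (-1.06), with a median of -1.23. *Ticam1* was closest to the control in both, at -0.30 with GAG and -0.25 with Alg. All 10 intervals lay below 0 in each of the 3 comparisons of day 3, which share the same control library. Here and below, counts of such intervals have no share of all genes beside them, so they cannot be set against a background. With the assumed coefficient of variation, 0 genes were called for GAG and 1 for Alg, and with library size alone 3 genes were past 2-fold for GAG. Macrophage markers were lower in 12 of 13 with GAG (summed log2 ratio -1.13) and in 11 of 13 with Alg (-1.51), and interferon response genes in 22 of 23 (-1.87) and 23 of 23 (-3.90). Keratinocyte markers were higher in 12 of 14 in both (1.04 and 0.78), and fibroblast markers in 7 of 9 in both (1.40 and 0.30). T and NK cell markers were higher in 8 of 10 with GAG but lower in sum (-0.52), and lower in 7 of 10 with Alg (-0.81). The part of these lists was not tested.

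On day 7 the d-SMG wound had the highest level of 7 of the 10 genes, namely *Tlr3*, *Tlr4*, *Tlr5*, *Tlr7*, *Tlr8*, *Myd88*, and *Ticam1*. It was highest in 23.7% of the 17915 genes with enough reads. The control was highest for the other three (*Tlr1*, *Tlr2*, and *Irak3*), against 23.8% of all genes. No difference between d-SMG and control reached 2-fold (0 genes lower, against 5.74% of 16164 genes, and 0 higher, against 7.5%). The ratios ran from -0.70 for *Tlr1* (interval -1.06 to -0.34) to 0.38 for *Tlr7* (interval 0.16 to 0.61). Only *Tlr7* and *Myd88* (0.34, interval 0.13 to 0.55) had intervals above 0, and the intervals of 5 genes held 0, so that no difference could be seen at this depth. The macrophage marker sum was also highest in this library, with 9 of 13 markers above the control and a summed log2 ratio of 0.52. Muscle markers were lower than in the control in 15 of 15 (-3.38) and keratinocyte markers higher in 14 of 14 (1.03). Interferon response genes were higher in 19 of 23 (0.21). Their part was not tested.

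The GAG and Alg wounds of day 7 lay far lower. With GAG, 6 genes were at least 2-fold below the control, against 12.5% of 16863 genes, and 0 above, against 13.6%. *Tlr2* had 83 against 275 reads although its library was the deepest of the 12, a log2 ratio of -3.14 (interval -3.51 to -2.78), the lowest ratio of any of the 10 genes on any day. *Tlr1* (-2.62, interval -3.08 to -2.18) and *Tlr8* (-1.90) followed, with *Tlr7* at -1.20, *Tlr5* at -1.07, and *Irak3* at -1.03. With Alg, 5 genes were at least 2-fold lower, against 12.1% of 15874 genes, and 0 higher, against 12.3%. These were *Tlr1* (-3.00, interval -3.80 to -2.29), *Tlr8* (-2.18), *Tlr2* (-1.73), *Tlr4* (-1.53), and *Tlr7* (-1.47). The medians of the 10 were -1.05 and -1.17. With the assumed coefficient of variation, 2 genes were called for GAG and 1 for Alg. All 13 macrophage markers were lower in both (summed log2 ratios -1.29 and -1.74), as were all 10 T and NK cell markers (-1.56 and -1.83), 8 of 8 and 7 of 8 neutrophil markers (-1.61 and -0.96), and 8 of 9 and 9 of 9 fibroblast markers (-2.41 and -1.94). Keratinocyte markers were higher in 14 of 14 in both (1.99 and 1.83), and interferon response genes in 18 of 23 with GAG (1.31) and 16 of 23 with Alg (0.72). Their part was not tested.

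By day 14 the order of the treatments had changed. The Alg wound was highest for 6 genes (*Tlr1*, *Tlr2*, *Tlr4*, *Tlr7*, *Tlr8*, and *Myd88*), against 20.8% of all genes. The control was highest for *Tlr5* and *Irak3* (29% of all genes), d-SMG for *Tlr3* (13.8%), and GAG for *Ticam1* (36.4%). In the Alg wound 0 genes were at least 2-fold lower, against 11.8% of 16326 genes, and 0 higher, against 9.51%. *Tlr2* was highest above the control (0.90, interval 0.50 to 1.30), while *Tlr3* (-0.76, interval -1.20 to -0.34) and *Tlr5* (-0.74, interval -1.07 to -0.42) were below it. In the d-SMG wound 2 genes were at least 2-fold lower, against 16.1% of 16395 genes, and 0 higher, against 12.7%. These were *Tlr4* with 81 against 254 reads (-1.28, interval -1.66 to -0.91) and *Tlr5* with 93 against 259 reads (-1.11, interval -1.47 to -0.76). Both intervals reach above -1, and with library size alone the count was 1. *Ticam1* was above the control with d-SMG (0.37, interval 0.12 to 0.63). Macrophage markers were lower than the control in 11 of 13 with d-SMG (summed log2 ratio -0.78) and in 6 of 13 with Alg (0.21), and neutrophil markers were higher in 6 of 8 and 7 of 8. Skeletal muscle markers were lower in 15 of 15 with d-SMG (-3.06) and in 14 of 15 with Alg (-2.44). Interferon response genes were lower in 23 of 23 (-0.77) and 22 of 23 (-1.13), and keratinocyte markers higher in 10 of 14 in both (0.88 and 0.76). Their part was not tested.

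The GAG wound of day 14 was the lowest library for 7 genes, where it was lowest in 39.1% of the 17632 genes with enough reads. Compared with the control, 6 genes were at least 2-fold lower, against 31.2% of 16517 genes, and 0 higher, against 26.6%, so that many genes of this library differed in both directions. *Tlr7* had 23 against 225 reads (log2 ratio -2.87, interval -3.56 to -2.25) and *Tlr8* 50 against 400 reads (-2.58, interval -3.03 to -2.15). *Irak3* (-2.03), *Tlr4* (-1.95), *Tlr1* (-1.90), and *Tlr5* (-1.33) were the other four. *Ticam1* stood above the control (0.45, interval 0.20 to 0.70), and for *Tlr2* a difference was not detectable (0.16, interval -0.29 to 0.62), its sign turning with library size alone. The macrophage markers were lower in 13 of 13, with 703 against 3086 CPM in sum (log2 ratio -2.13). The keratinocyte sum was 40241.5 against 11055 CPM, but the markers were split, with 8 of 14 higher and 6 lower (median log2 ratio 0.54). Interferon response genes were lower in 21 of 23 (summed log2 ratio -1.40) and fibroblast markers in 9 of 9 (-1.73). Muscle markers were higher in 10 of 15 (0.83). Their part was not tested.

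**Figure D3:**
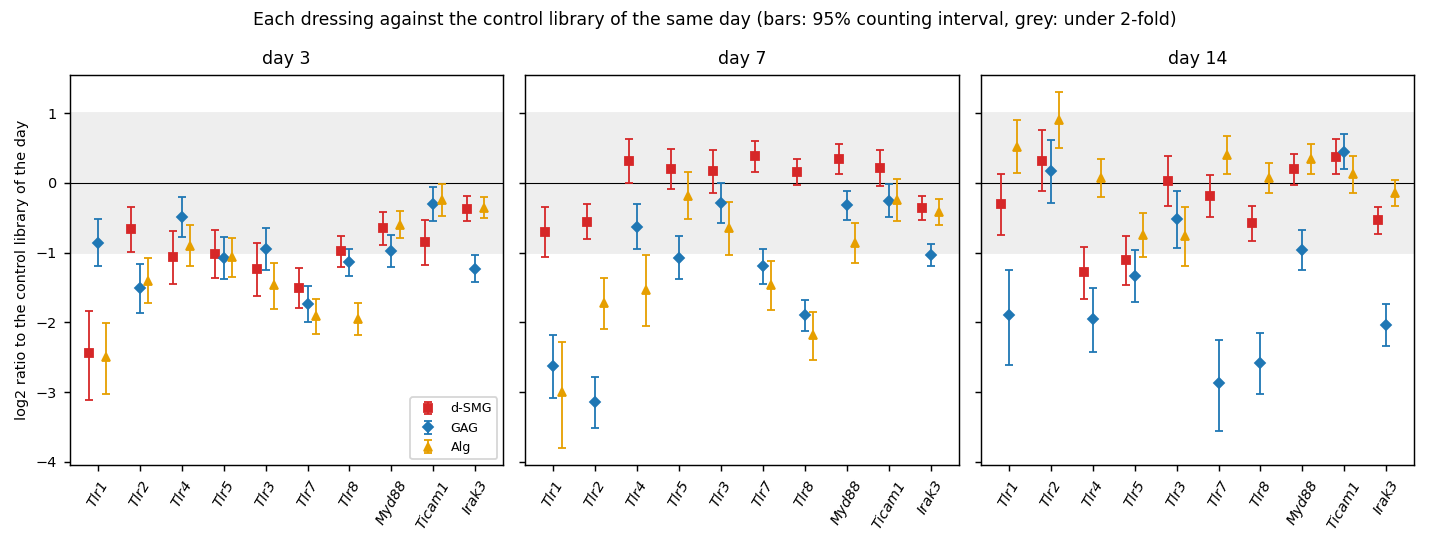
Log2 ratio of CPM between each dressing and the control library of the same day, with 1 panel per day, bars giving the 95% counting interval, and the grey band marking differences under 2-fold. On day 3 all 30 ratios lie below 0, on day 7 only d-SMG has ratios above 0, and on day 14 the GAG ratio of *Tlr7* is -2.87.

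With the 3 days taken as replicates of each treatment, no gene of the family differed from the control after correction. edgeR's quasi-likelihood test, fitted with treatment and day and with Benjamini-Hochberg adjustment over 16110 genes, called 0 of the 10 genes and 0% of all genes for d-SMG, GAG, and Alg alike. An unadjusted p-value under 0.05 was reached by 218 genes and 0 of the 10 for d-SMG, by 1492 genes and 5 of the 10 for GAG, and by 502 genes and 1 of the 10 for Alg. DESeq2 called 9, 281, and 93 genes in these comparisons. In this model, a response to a dressing that differs between days adds to the spread, and the p-values measure the spread between these 12 libraries, which nothing in the labels ties to separate animals.

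For GAG the fitted values were below 0 in all 10 genes, with a median log2 fold change of -1.25, against 0.0021 over all genes. *Irak3* had the smallest p-value, with a log2 fold change of -1.36 (SE 0.29, adjusted p = 0.417, lower on 3 of 3 days), and it was the 1 gene of the family called by DESeq2 (-1.35, adjusted p = 0.00468). *Tlr5* was at -1.13 (SE 0.34, adjusted p = 0.437), *Tlr7* at -1.72 (SE 0.64, adjusted p = 0.502), *Tlr8* at -1.67 (SE 0.63, adjusted p = 0.504), and *Tlr2* at -1.49 (SE 0.60, adjusted p = 0.524), the last lower on 2 of 3 days. Of the 10 genes, 8 were lower than the control on each day, against 14% of all genes, and 5 (*Tlr5*, *Tlr7*, *Tlr8*, *Myd88*, and *Irak3*) had all 3 GAG libraries below all 3 control libraries, against 7.66%. Without the day 14 GAG library, *Tlr7* was at -1.25, *Tlr8* at -1.24, *Tlr4* at -0.49 in place of -0.89, and *Irak3* at -1.11, the median of the 10 was -1.12, and 0 of the 10 were called. Without the day 3 control library the median was -1.17, with 9 of 10 below 0, and 0 of the 10 were called. *Ticam1* was at -0.011 (SE 0.32).

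For Alg the median was -0.75, and *Tlr3* had the smallest p-value (log2 fold change -0.99, SE 0.33, unadjusted p = 0.0140, adjusted p = 1 by the quasi-likelihood test, lower on 3 of 3 days). *Tlr5* (-0.68) and *Irak3* (-0.30) were also lower on each day, which makes 3 of the 10, against 11.2% of all genes. *Tlr3* and *Tlr5* had all 3 Alg libraries below all control libraries, 2 of the 10, against 4.23%. For d-SMG the median was -0.45, and *Tlr1* (-1.07, SE 0.81) and *Irak3* (-0.46, SE 0.29) were lower on each day, 2 of the 10, against 8.52% of all genes, with 0 of the 10 free of overlap, against 1.18%. Every interval of a d-SMG value held 0. Without day 3, the d-SMG values of *Tlr3*, *Tlr7*, *Myd88*, and *Ticam1* were above 0, the highest being 0.29 for *Ticam1*. Without the day 3 d-SMG library alone the d-SMG median was -0.20, with 8 of 10 below 0, and without the day 3 control library it was -0.29, again with 8 of 10 below 0. For Alg the median was -0.56 without the day 3 control library, with 9 of 10 below 0.

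**Figure D4:**
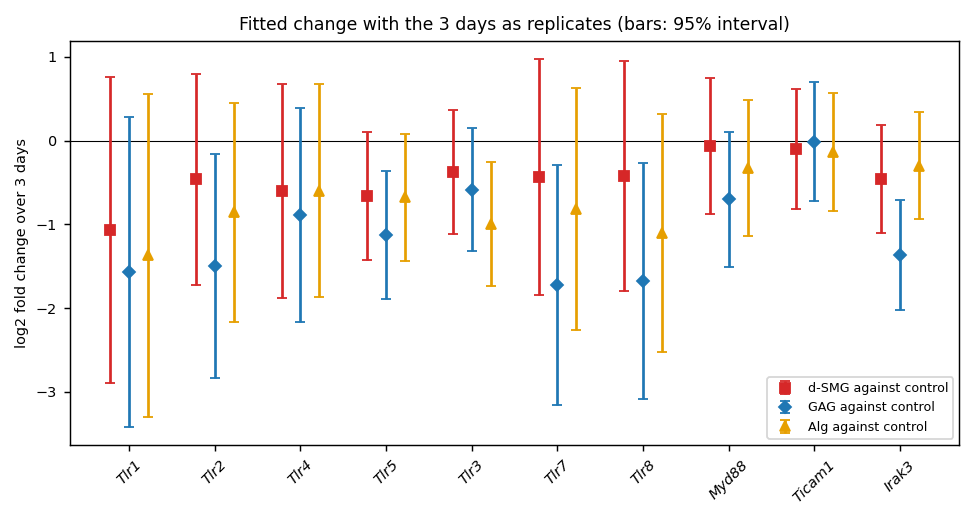
Log2 fold change of each dressing against control from the quasi-likelihood fit with the 3 days as replicates, for the 10 genes, with bars giving the 95% interval of the fit. All 30 values lie below 0, and the intervals that leave out 0 are those of *Tlr2*, *Tlr5*, *Tlr7*, *Tlr8*, and *Irak3* for GAG and of *Tlr3* for Alg.

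Between the days, with the 4 treatments as replicates, the family showed no common course. The same test called 0 of the 10 genes and 0% of all genes for day 7 against day 3, for day 14 against day 3, and for day 14 against day 7, and 0 of the 10 had an unadjusted p-value under 0.05 (292, 798, and 502 of all genes had, and DESeq2 called 18, 46, and 26). The medians of the 10 log2 fold changes were 0.0033, -0.25, and -0.23. *Irak3* was lower on day 14 than on day 3 in 4 of 4 treatments (log2 fold change -0.53, SE 0.25, adjusted p = 0.882) and lower than on day 7 in 4 of 4 (-0.52, SE 0.25, adjusted p = 0.904). *Tlr3* was lower on day 14 than on day 7 in 4 of 4 treatments (-0.55, SE 0.28, adjusted p = 0.904). This makes 1 of the 10 genes for day 14 against day 3, 2 for day 14 against day 7, and 0 for day 7 against day 3. The share of all genes lower in 4 of 4 treatments is not given, so these counts cannot be read as a trait of the 10. The treatments went different ways in the other genes. *Tlr7*, for example, went from 29.7 to 10.9 CPM in the control and from 8.96 to 1.49 CPM with GAG between day 3 and 14, and from 7.90 to 14.4 CPM with Alg.

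Several receptors had a narrower range of levels relative to the sum of the macrophage markers. Over the 12 libraries *Tlr8* spanned a 10.97-fold range, but per 1000 CPM of macrophage markers it had 4.62 to 8.11 CPM, a 1.75-fold range. The range of *Tlr4* was 4.24-fold and 2.03-fold relative to the markers, and that of *Tlr7* 19.9-fold and 3.18-fold. For each of these receptors the range was narrower relative to the markers. *Myd88* had a 2.83-fold range of its own and a 2.51-fold range relative to the markers. *Ticam1* had the wider range relative to the markers, with a 1.98-fold range of its own and a 7.44-fold range relative to the markers, as did *Tlr3* (3.28-fold and 5.996-fold) and *Tlr5* (3.03-fold and 4.49-fold). The SD of the log2 values was smaller relative to the markers in 6 of the 10 genes, and the marker sum itself spanned 6.94-fold. For *Myd88* the SD was larger relative to the markers (0.46 and 0.498), although its range was narrower. The share of all genes with a smaller SD is not given. The neutrophil and the T and NK cell marker sums were, like the macrophage sum, lowest in the day 14 GAG library. Only the macrophage sum was used as a divisor, so that a tie to macrophages in particular was not tested. The points share a library and its scaling, and the values are given as a description.

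Divided by the macrophage marker sum of the same library, a scaling chosen after the data were seen, few differences of day 3 were past 2-fold. With d-SMG, *Tlr1* was the 1 gene at least 2-fold lower (8.11% of all genes on this scale) and 0 were higher (35.8%). With GAG, 0 were lower (2.21%) and 0 higher (54.4%), and with Alg, 0 were lower (1.36%) and 2 were higher, *Ticam1* and *Irak3* (78.2%). The medians of the 10 were -0.24, 0.10, and 0.28. The divisor itself was below the control, at a log2 ratio of -1.13 with GAG and -1.51 with Alg. A gene level with the control in CPM is thus past 2-fold higher on this scale. The large shares of higher genes follow from the divisor, and the counts of the 10 cannot be read against them. The same holds for GAG and Alg on day 7 and for GAG on day 14.

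On day 7, *Tlr1* and *Tlr2* were at least 2-fold lower relative to the markers with d-SMG (14.1% of all genes), and 0 were higher (3.59%). With GAG, the same 2 genes were at least 2-fold lower (2.66%) and *Ticam1* was higher (68.3%). With Alg, *Tlr1* was lower (1.09%) and *Tlr3*, *Tlr5*, *Ticam1*, and *Irak3* were higher (82.5%). On day 7, *Tlr1* was below the control in all 3 dressings both in CPM and relative to the markers. On day 14, *Tlr2* and *Ticam1* were at least 2-fold higher with d-SMG (38.7%) and 0 were lower (7.01%). With GAG, *Tlr2*, *Tlr3*, *Myd88*, and *Ticam1* were higher (71.2%) and 0 were lower (6.19%), and with Alg, 0 were lower (15.3%) and 0 higher (7.39%).

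**Figure D5:**
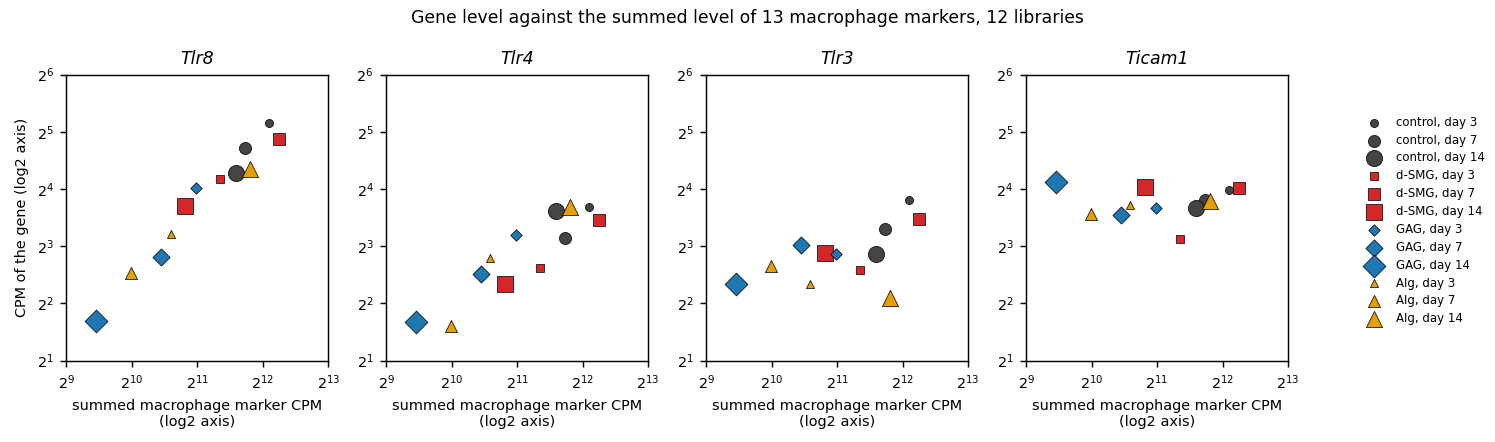
CPM of *Tlr8*, *Tlr4*, *Tlr3*, and *Ticam1* (log2 axis) against the summed CPM of 13 macrophage markers (log2 axis), with 1 point per library, colored by treatment and larger for later days. Over a 6.94-fold range of the markers, *Tlr8* spans a 10.97-fold range and *Ticam1* stays within 1.98-fold.

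For the 3 receptors that varied most, the genes with the most similar levels over the 12 libraries were looked up. Likeness was the root mean square difference of the centered log2 CPM, computed over 16100 genes. For *Tlr7* the nearest were *Igsf6* (0.20), *Il10ra*, the receptor of interleukin 10 (0.28), and *Trpm2*, a cation channel (0.33), against a median of 1.13 over all genes. For *Tlr8* they were the C-type lectin gene *Clec4a3* (0.23), the kinase gene *Lyn* (0.24), and *Il10ra* (0.27), against 1.09. For *Tlr1* they were *Hcls1*, a substrate of LYN (0.38), *Clec4a3* (0.41), and *Ebi3*, a cytokine subunit (0.44), against 1.19.

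The rest of the pathway was read from 85 further genes in 7 lists, namely other receptors, accessory proteins, adaptors and negative regulators, kinases and ubiquitin ligases, transcription factors, target cytokines and enzymes, and receptors of the interleukin 1 family. In the fits over the 3 days, 84 of them were tested and 0 were called in each comparison. For GAG, 9 had an unadjusted p-value under 0.05, all lower, against 9.26% of all genes, a share near theirs, and the median log2 fold change of the 84 was -0.45. The smallest p-values were those of *Unc93b1*, which carries endosomal receptors to their compartment (-1.35, SE 0.44, adjusted p = 0.467), *Tlr6*, the other partner of TLR2 (-1.62, SE 0.56, adjusted p = 0.493), and the transcription factor gene *Irf1* (-1.17, SE 0.42, adjusted p = 0.499). For Alg 3 genes were under 0.05, all lower (3.12% of all genes), which were *Cd180* (-1.25), *Tlr13* (-0.91), and *Ly86*, the partner of CD180 (-1.41), with a median of -0.23 over the 84. For d-SMG 1 gene was under 0.05 (1.35% of all genes), the cytokine gene *Il1a* (-3.58, SE 1.19, adjusted p = 1), followed by *Irf7* (-2.49) and the decoy receptor gene *Il1r2* (-1.05), with a median of -0.13.

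Between the days, 2, 4, and 4 of the 84 genes had an unadjusted p-value under 0.05, against 1.81%, 4.95%, and 3.12% of all genes, so that the list stood near the background. From day 3 to day 7 the smallest p-values were those of *Lbp*, the carrier of lipopolysaccharide (2.16, SE 0.71, adjusted p = 0.999), the chemokine gene *Ccl2* (-1.41), and *Nfkbib*, an inhibitor of NF-kB (-0.77). From day 3 to day 14 they were those of *Cd180* (-0.95), *Tlr13* (-0.79), and *Il1a* (2.43), and from day 7 to day 14 those of *Lbp* (-1.90, SE 0.70, adjusted p = 0.904), *Tlr11* (1.87), and *Ccl2* (1.26).

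On single days, the lists are described by the same counts as the 10 genes, beside the shares of all genes. They differ in read depth, with at least 10 reads in all 12 libraries in 15 of 15 kinases and ubiquitin ligases and in 7 of 21 targets, and no test was made between them. The kinases and ubiquitin ligases that relay the signal had 0 of 15 genes past 2-fold in either direction in 8 of the 9 comparisons. In these 8, 5.74% to 16.1% of all genes were at least 2-fold lower and 7.5% to 14.2% higher. In the ninth, GAG on day 14, 8 of the 15 were lower and 1 higher, against 31.2% and 26.6% of all genes. Of the cytokine and enzyme targets on day 3, 11 of 19 were at least 2-fold lower and 2 higher with d-SMG (14.2% and 9.88% of all genes), 8 of 20 lower and 4 higher with GAG (11.6% and 14.2%), and 11 of 19 lower and 2 higher with Alg (8.79% and 11.4%). The genes with the largest ratios of day 3 included *Irf7*, a transcription factor of the interferon response, with 4838 reads in the control, 34 with d-SMG (log2 ratio -6.18), and 151 with Alg (-4.79). The chemokine gene *Cxcl10* had 1222 reads in the control, 10 with d-SMG (-5.96), 131 with GAG (-2.81), and 14 with Alg (-6.23). *Acod1*, which encodes the enzyme that makes itaconate, had 136 reads in the control, 6 with Alg (-4.29), and 1 with d-SMG (-6.12, interval -11.43 to -3.62). With GAG the others were *Ptgs2* (2.81) and *Cd14*, the co-receptor of TLR4 (-2.15). In all, 21 of the 81 genes with enough reads were at least 2-fold lower and 6 higher with d-SMG, 16 and 11 of 84 with GAG, and 25 and 3 of 82 with Alg.

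On day 7, 6 of 84 pathway genes were at least 2-fold lower and 6 higher with d-SMG, which is near the 5.74% and 7.5% of all genes. The counts were 24 and 6 of 84 with GAG (12.5% and 13.6% of all genes) and 26 and 4 of 82 with Alg (12.1% and 12.3%). *Lbp* had 3185 reads in the control, 1158 with d-SMG (log2 ratio -1.96), 460 with GAG (-4.20), and 353 with Alg (-3.20). *Nos2*, the inducible nitric oxide synthase, was lower with d-SMG (-1.95) and Alg (-3.18), and *Il18rap*, a chain of the interleukin 18 receptor, with GAG (-2.44) and Alg (-2.88). *Cxcl10* had 621 reads with GAG against 3 in the control (6.28, interval 4.73 to 8.56). *Tlr12* was higher with d-SMG (49 against 5 reads, 2.79, interval 1.47 to 4.48).

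On day 14 most targets with a 2-fold difference were higher in the d-SMG and Alg wounds, while with GAG 5 of 17 were higher and 5 lower. With d-SMG, of 20 target genes, 11 were at least 2-fold higher and 1 lower, among them *Cxcl1*, a chemokine gene for neutrophils, with 1208 against 42 reads (log2 ratio 5.21, interval 4.77 to 5.69). *Cxcl3* had 50 reads against 1 (6.01, interval 3.47 to 11.34), and *Il1a* had 2 against 72 (-4.80, interval -7.87 to -2.90). With Alg, 9 of 19 targets were higher and 2 lower, with *Cxcl1* at 508 against 42 reads (3.98), *Il6* at 78 against 3 reads (5.08, interval 3.48 to 7.39), and *Cxcl3* at 155 against 1 (7.65, interval 5.16 to 12.97). Over all lists, 7 of 84 genes were lower and 13 higher with d-SMG (16.1% and 12.7% of all genes), 6 and 12 of 83 with Alg (11.8% and 9.51%), and 39 and 10 of 81 with GAG (31.2% and 26.6%). The largest ratios with GAG were those of *Il18rap* (-3.78), *Pik3ap1*, an adaptor of receptor signaling (-3.72), and *Ticam2*, the bridge between TLR4 and TICAM1, with 7 against 113 reads (-3.59).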

How the data were processed

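RNA of wound tissue was sequenced after depletion of ribosomal RNA as stranded paired reads of 150 bases. The submitters' notes name bcl2fastq, FastQC, TopHat2 and edgeR without versions, and the genome build, the annotation and the read counter were not given in the sources used here. The authors deposited 1 table of read counts per gene and 1 table of FPKM values per gene. Each table also holds 1 column of values that matches no sample label, which was not used. Library and group were taken from the labels, with 1 sample per treatment and day.

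Counts were tested in R 4.3.3 with the quasi-likelihood test of edgeR 4.0.16 (TMM normalization, filterByExpr, terms for day and treatment, 6 residual degrees of freedom) and Benjamini-Hochberg adjustment over all genes at 0.05. Single-day ratios have no test and carry 95% Clopper-Pearson intervals, which cover counting error only, since reads without molecular identifiers are not independent molecules. FPKM values served to compare genes with each other. Alternatives used DESeq2 1.42.0, limma 3.58.1 on log2(FPKM + 1) and log2(FPKM + 0.1), other scalings and filters, single libraries left out, and an assumed biological coefficient of variation of 0.3. Leaving out the day 14 GAG library and dividing by the macrophage markers were added after the data were seen. The scripts were tested on simulated data. Figures were drawn in Python 3.11.15 with matplotlib 3.10.9.

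The 10 genes, the marker lists and the pathway lists were chosen with earlier results of these data known. All 10 genes were named. Of the 85 pathway genes, the 3 with the smallest adjusted p-value, or the largest single-day ratio with at least 50 reads, were named in each comparison, and *Tlr1*, *Tlr7* and *Tlr8* were the 3 genes with the largest SD of log2 CPM.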

Additional observations from a re-analysis of the deposited data

Results flagged for a closer look

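In the Alg wounds, 3 receptors lay below the control on day 3 and day 7 and above it on day 14, with counting intervals clear of 0 each time. For *Tlr1* the log2 ratio to the control was -2.50, -3.00, and 0.52 on day 3, 7, and 14, so that day 14 exceeded day 3 by 3.02 and day 7 by 3.52. For *Tlr2* the ratios were -1.40, -1.73, and 0.90, and day 14 exceeded day 3 by 2.30 and day 7 by 2.62. For *Tlr7* they were -1.91, -1.47, and 0.40, and day 14 exceeded day 3 by 2.31 and day 7 by 1.86. These shifts hold changes of both libraries. From day 3 to day 14 the control fell from 10.9 to 5.58 CPM for *Tlr1*, 14.1 to 4.46 for *Tlr2*, and 29.7 to 10.9 for *Tlr7*. Alg rose from 1.93 to 8.01, 5.33 to 8.32, and 7.90 to 14.4 CPM. The macrophage marker sum with Alg had log2 ratios of -1.51, -1.74, and 0.21 on the 3 days, and its part was not tested. In the d-SMG wounds, *Tlr7* had a ratio of -1.502 on day 3 and 0.38 on day 7, a difference of 1.88. Between these days its control level fell from 29.7 to 17.4 CPM and its d-SMG level rose from 10.5 to 22.7 CPM. With 1 library per treatment and day, these differences between days were not tested.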

How the results depend on the processing

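Of the log2 fold changes over the 3 days recomputed under the alternatives, 373 kept their direction and their side of the threshold, 16 turned in sign, and 1 passed the threshold. DESeq2 called 1 of the 10 genes for GAG (*Irak3*, -1.35, adjusted p = 0.00468), where the quasi-likelihood test called 0. Without the day or treatment term (no replicate block), 0 of the 10 were called in each of the 6 comparisons. Signs turned near 0. For d-SMG, leaving out 1 day gave -0.61 to 0.097 for *Tlr3*, -0.86 to 0.12 for *Tlr7*, -0.25 to 0.27 for *Myd88*, and -0.25 to 0.29 for *Ticam1*. *Myd88* was at 0.046 and *Ticam1* at 0.043 with library size alone, at 0.17 and 0.13 without the day 3 control library, and at 0.18 and 0.22 without the day 3 d-SMG library. *Ticam1* with GAG was at 0.0017 with RLE size factors, 0.019 without the block, 0.17 without the day 3 control library, and -0.28 to 0.13 leaving out 1 day, and with Alg at 0.069 without the day 3 control library. The causes were not tested.

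Of the single-day ratios, 507 stayed within their counting interval, 33 moved beyond it, and 0 of those past 2-fold turned in sign. Library size alone shifted the ratios of all genes by -0.46, 0.17, and 0.15 on day 3 (d-SMG, GAG, and Alg), by 0.29 for d-SMG on day 7, and by 0.19 and -0.39 for d-SMG and GAG on day 14. It gave 9 genes past 2-fold in place of 5 for d-SMG and 3 in place of 5 for GAG on day 3, and 1 in place of 2 for d-SMG on day 14, and FPKM gave the same 3 counts. With the whole interval past 2-fold, the counts were 2 and 3 for d-SMG and GAG on day 3, 3 in place of 6 for GAG on day 7, and 0 for d-SMG on day 14. An assumed coefficient of variation of 0.3 gave 1, 0, and 1 (in place of 6) for d-SMG, GAG, and Alg on day 3, 2 for GAG and 1 (in place of 5) for Alg on day 7, and 0 for d-SMG on day 14. No share of all genes stands beside the counts under these alternatives. Relative to the macrophage markers the counts were 1, 0, and 2 on day 3, and 2 (in place of 0) and 3 for d-SMG and GAG on day 7. For GAG on day 14 the count ran from 4 to 7 over the alternatives, in place of 6. Relative to the markers it was 4 there, all higher, where the 6 were lower. Depth limits the low levels most, such as the 18 reads of *Tlr1* and the 23 reads of *Tlr7* in single libraries.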
